A study of Mus musculus with 3 samples.

Results

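Voltage-gated sodium and calcium channels turn a change of membrane potential into spikes, dendritic depolarization and transmitter release, and the genes of these channels and of their closest partners were followed across the cell types of the mouse olfactory bulb (OB). The members were all gene symbols of the files that name a sodium channel alpha subunit (Scn followed by a number and a) or beta subunit, a calcium channel alpha1, alpha2delta or beta subunit, and 6 added genes, Nalcn, Unc79, Unc80, Fgf12, Fgf13 and Fgf14. They came to 38 of the 31055 genes counted. All 38 were placed in the GENCODE M21 annotation of GRCm38. None shared its span with another counted gene on the same strand, and 14 did with one on the other strand, for example Cacna1c with Dcp1b and Cacna2d2 with Gm17141, whose reads cannot be told apart from the member's if the counting ignored strand.

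The pore of a sodium or calcium channel is one large alpha subunit, while beta and alpha2delta subunits set where the pore is placed and how it gates. Sodium channels carry the upstroke of the action potential. P/Q-type and N-type calcium channels trigger transmitter release, L-type channels link activity to transcription, R-type channels open at intermediate voltages, and T-type channels open near rest and drive burst firing. NALCN, with UNC79 and UNC80, forms a sodium leak that sets the resting potential. In the OB, mitral and tufted cells are the glutamatergic output neurons, external tufted cells of the glomerular layer are known to burst, and granule and periglomerular cells are inhibitory interneurons that release transmitter from their dendrites.

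Nuclei came from the olfactory bulbs of 3 adult male C57Bl/6 mice, all of one group with no untreated or second condition. Each mouse had received retroAAV-CAG-H2B-GFP, a retrograde virus with a nuclear GFP under the broadly active CAG promoter, in both the anterior olfactory nucleus and piriform cortex, and GFP+ nuclei were sorted and counted by droplet sequencing. The sort did not hold projection neurons alone. Of 31703 retained nuclei, 21236 lay in 10 clusters with markers of inhibitory neurons and 6346 in 7 subclusters of projection neurons, which carried the marker lists of the mitral types M1, M2 and M3, the tufted type T1 and the external tufted types ET1, ET2 and ET4 and are named so here, in the sense of M1-like and so on.

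The data had limits that touch the values below. A library here is the sum of UMIs (unique molecular identifiers, 1 per captured RNA molecule) of 1 type in 1 mouse. Levels are given as CPM, the UMIs of a gene scaled to a common library total, and they were compared between types for a gene and never between genes, since nuclear RNA favours long genes. The libraries of the types held 161593 to 16961469 UMIs from 14 to 1059 nuclei. The smallest in nuclei was M1 of mouse 1, with 14. The glutamatergic marker Slc17a7 and the mitral and tufted cell marker Cdhr1 were carried by all 7 types, at means of 103 to 414 and 244 to 455 CPM, against 24.5 and 18.9 CPM in the inhibitory clusters. Other projection neuron markers were less even. Tbx21 was at means of 3.90 CPM in ET1 and 2.31 CPM in ET4, against 1.28 CPM in the inhibitory clusters. Thy1 was at 45.5 CPM in M1 and 44.5 CPM in ET4, below its 50.4 CPM in the inhibitory clusters. RNA of inhibitory neurons was found in every class. The summed level of 8 inhibitory markers was 5461 CPM in the inhibitory clusters, 125 to 555 CPM in the 7 types (2.30% to 10.2% of the inhibitory level) and 993 to 1786 CPM in 5 glial clusters. It was highest in mouse 2 in each of the 7 types. A further 1158 nuclei, in 3 subclusters, were left out of the 7 types because they met no projection neuron list. Mice 1 and 2 shared 39 retained cell barcodes, mice 1 and 3 shared 8 and mice 2 and 3 shared 35.

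Nearly every measurable member differed among the 7 projection neuron types. Of 32 members tested, 31 passed edgeR's quasi-likelihood F test at an adjusted p under 0.05 (Benjamini-Hochberg over 14696 genes), where 64.8% of all genes did, so that this count alone says little about channels. Cacna2d4, an alpha2delta gene, was the exception (adjusted p = 0.12 by edgeR), at means of 8.14 to 26.6 CPM. In all, 6 members had too few UMIs to be tested, among them Scn4a, Scn7a, Scn10a, Scn11a and Cacna1f, each at a mean of at most 2.78 CPM in any type. When each type was set against the mean of the other 6, with a call at an adjusted p under 0.05 and a fold change over 2, there were 66 calls on 24 members, 32 higher and 34 lower. ET4 had 10 members lower and 3 higher, against backgrounds of 9.32% and 8.72% of all genes. M1 had 6 higher and 6 lower (7.81% and 4.04%), M2 6 and 3 (6.83% and 5.29%), M3 2 and 2 (5.37% and 3.2%), T1 5 and 4 (6.68% and 5.5%), ET1 5 and 4 (5.17% and 3.44%) and ET2 5 and 5 (7.64% and 6.18%). The types were formed on these same counts, so that the p-values here and below describe differences between clusters and do not test whether the types exist.

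**Figure D1:**
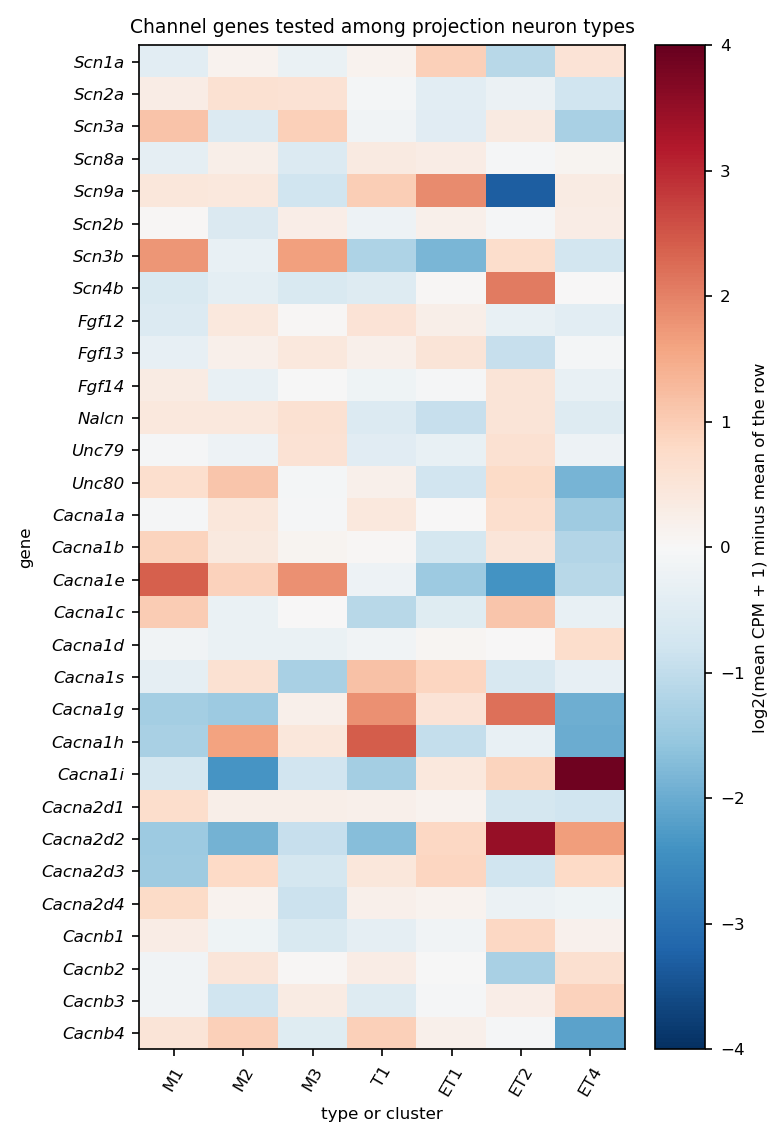
Each row is 1 of 31 members tested among projection neuron types and each column 1 type. Colour gives log2(mean CPM of 3 mice + 1) minus the mean of the row. Cacna1i stands out in ET4, Cacna2d2 and Scn4b in ET2, Cacna1e in M1 and M3, and Cacna1h in T1, while Scn9a is lowest in ET2.

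Among sodium channel alpha subunits, which form the pore, Scn1a was highest in ET1, Scn2a in the mitral types and Scn3a in M1 and M3. Scn1a was at 502, 472 and 505 CPM in the 3 mice in ET1, at 396, 345 and 374 CPM in ET4 and at 111, 122 and 116 CPM in ET2. The levels in ET1 lay above those of every other type in all mice, and those in ET2 below. Against the mean of the other types the log2 fold change was 1.23 ± 0.08 (SE) in ET1 (adjusted p = 8.5e-12, edgeR) and -1.34 ± 0.10 in ET2 (adjusted p = 9.2e-11, edgeR). Scn2a was at 353 to 405 CPM in M2 and 320 to 430 CPM in M3 and was lowest in ET4, at 168, 133 and 126 CPM. It was higher in mitral than in tufted types by a log2 fold change of 0.83 ± 0.07 (adjusted p = 2.9e-10, edgeR), short of 2-fold. Scn3a, the alpha subunit most associated with immature neurons, was at 229, 218 and 201 CPM in M1 and 205, 173 and 184 CPM in M3, against 37.1, 37.0 and 41.2 CPM in ET4. M1 and M3 overlapped each other and were above the other 5 types in every mouse. Scn8a, which accumulates at the axon initial segment, went from a mean of 310 ± 9.5 CPM in T1 to 164 ± 49.6 CPM in M3 (SD, n = 3 mice).

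Scn9a, an alpha subunit best known from sensory neurons, had the widest range of the sodium channel alpha genes that were tested here. It was at 144, 163 and 180 CPM in ET1, at 86.1, 83.3 and 91.1 CPM in T1 and at 6.94, 2.84 and 0.706 CPM in ET2, which gave a log2 fold change of -4.57 ± 0.37 for ET2 (adjusted p = 1.9e-10, edgeR) and 2.31 ± 0.17 for ET1 (adjusted p = 5.4e-11, edgeR). ET2 did not overlap any other type except at 1 library, M1 of mouse 1. That library was at 6.19 CPM while the M1 libraries of the other mice were at 80.3 and 92.2 CPM. The call of Scn9a as higher in M1 (log2 fold change 1.07 ± 0.19, adjusted p = 0.00011, edgeR) was lost without mouse 3, at 0.82, and against the summed nuclei of the other types, at 0.05.

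The shares of Scn1a, Scn2a, Scn3a and Scn8a in their summed UMIs, read for each gene across types, do not depend on library size. Scn1a made up 47.4 ± 1.2% in ET1 and 45.8 ± 1.2% in ET4, 30.8 ± 0.65% in T1 and 17.1 ± 0.74% in ET2 (SD, n = 3 mice). From the highest to the lowest type its share fell by 30.3 percentage points (SD 1.4). Scn2a made up 33.8% to 39.2% in the mitral types and 17.5% to 30.6% in the tufted types, and Scn3a 24.3 ± 2.4% in M1, 20.2 ± 0.78% in M3 and 4.74 ± 0.33% in ET4. No test was run on these shares.

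**Figure D2:**
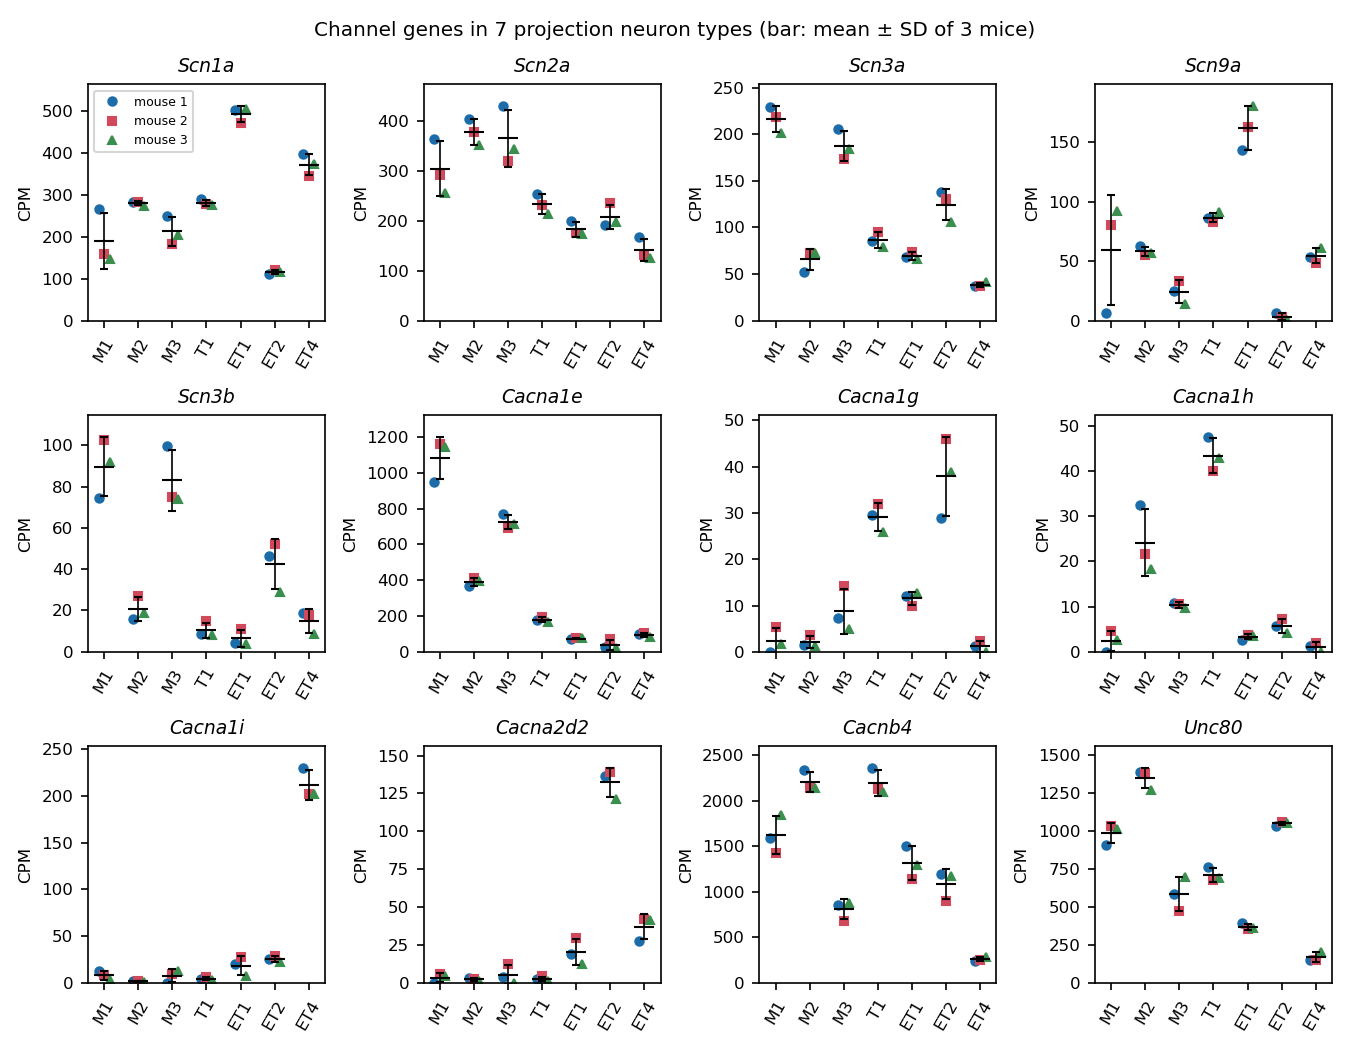
CPM of 12 members in the 7 projection neuron types, with 1 point per mouse, a horizontal bar for the mean and a vertical bar for the SD of 3 mice, each panel on its own linear scale from 0. Scn1a and Scn9a are highest in ET1, Cacna1e is highest in M1 and M3, and Cacna1i is high in ET4 alone.

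Sodium channel beta subunits anchor the pore and adjust its gating. Scn3b was high in M1 and M3. It was at 74.3, 103 and 92.0 CPM in M1, at 99.9, 75.0 and 74.1 CPM in M3 and at 4.49, 11 and 3.89 CPM in ET1, with ET2 between at 46.3, 52.1 and 28.9 CPM. The log2 fold change was 2.17 ± 0.19 in M1 (adjusted p = 1.1e-09, edgeR) and 1.69 ± 0.24 in M3 (adjusted p = 1.1e-05, edgeR). Scn2b ranged from 52.8 ± 8.09 CPM in ET4 to 28.2 ± 3.88 CPM in M2 and was called in no single type. Scn4b, whose product supports resurgent sodium current, was rare, with 27 UMIs in ET2 (5.79, 2.84 and 7.76 CPM by mouse) and 0 in M1 and M3, so that it was at least 19.8-fold higher in ET2 than the 3 counts over the group that 0 UMIs in M1 allow, and at least 3.37-fold higher than in M3.

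Fibroblast growth factor homologous factors (Fgf12, Fgf13, Fgf14) bind the tail of sodium channels and slow their inactivation. Fgf12 was highest in T1, at 1825 ± 76.5 CPM, and lowest in M1, at 856 ± 176 CPM. Fgf14 went from 2871 ± 278 CPM in ET2 to 1635 ± 47.6 CPM in ET4. Fgf13 was lowest in ET2, at 146, 214 and 82.5 CPM, against a highest mean of 399 ± 19.7 CPM in ET1, and its call as lower in ET2 was lost without mouse 3 (log2 fold change -0.82, with -1.10 ± 0.17 in all mice). All 3 differed by under 3-fold between their extreme types.

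The genes of the sodium leak did not move as one. Unc80, a scaffold of the leak channel, was at 1390, 1387 and 1271 CPM in M2 and at 153, 150 and 205 CPM in ET4, with no overlap of either with another type. The log2 fold change was 1.47 ± 0.10 in M2 (adjusted p = 1.4e-11, edgeR) and -2.31 ± 0.14 in ET4 (adjusted p = 3.9e-13, edgeR). Nalcn, the pore, ranged from 238 ± 14 CPM in M3 to 89.3, 76.2 and 78.7 CPM in ET1, which overlapped ET4, and its call as lower in ET1 (log2 fold change -1.01 ± 0.13) was lost without mouse 2, at -0.97. Unc79 ranged from 388 ± 24.4 CPM in ET2 to 187 ± 5.75 CPM in T1. The highest and lowest types thus differed among the 3 genes.

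Among calcium channel pores, the genes of the release channels were lowest in ET4. Cacna1a (P/Q-type) was at 245, 234 and 272 CPM in ET4, below all other types, and highest in ET2, at 1061 ± 136 CPM, and the log2 fold change in ET4 was -1.77 ± 0.12 (adjusted p = 4.1e-12, edgeR). Cacna1b (N-type) was at 58.6, 81.3 and 74.1 CPM in ET4 and 291, 276 and 328 CPM in M1, with a log2 fold change of -1.48 ± 0.12 in ET4 (adjusted p = 3.1e-10, edgeR). Its call as higher in M1, at 1.04 ± 0.10, fell to 0.93 without mouse 3 and to 0.82 against the summed nuclei of the other types, and was then not past 2-fold.

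Cacna1e, the R-type pore, gave the largest difference between mitral and tufted types of the members with counts in all types. It was at 947, 1159 and 1141 CPM in M1, at 770, 693 and 712 CPM in M3 and at 367, 411 and 395 CPM in M2. T1 followed at 179, 195 and 168 CPM, and ET4, ET1 and ET2 lay at 82.4 to 105, 72.2 to 75.4 and 19.8 to 69.9 CPM. Each of these levels lay outside the range of its neighbour in this order, and all mitral libraries were above all tufted ones. The log2 fold change between mitral and tufted types was 2.94 ± 0.12 (adjusted p = 1.2e-15, edgeR).

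The L-type genes ran differently. Cacna1d was highest in ET4, at 1116, 1008 and 1143 CPM, above all other types, and lowest in M3, at a mean of 554 ± 26.3 CPM, but the log2 fold change of ET4 was 0.70 ± 0.08. Cacna1c was highest in ET2, at 485, 473 and 327 CPM, and in M1, at 371, 465 and 363 CPM, and lowest in T1, at 74.4, 108 and 86.4 CPM. Its level in the inhibitory clusters was 1649 CPM. In ET2 it reached 26.0% of the inhibitory level, in M1 24.2% and in T1 5.43%, where the 8 inhibitory markers together reached 10.2%, 6.64% and 2.46%. Both were higher in ET2 than in T1, and the part of background RNA in the difference was not tested.

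Each of the 3 T-type genes had its own pattern. Cacna1i was at 230, 202 and 203 CPM in ET4, and no library of another type passed 28.9 CPM. The log2 fold change in ET4 was 4.63 ± 0.18 (adjusted p = 1.2e-16, edgeR). Cacna1h was at 47.5, 39.9 and 42.9 CPM in T1 and 32.5, 21.6 and 18.4 CPM in M2, which did not overlap, and at 1.20, 2.05 and 0 CPM in ET4. It was called higher in T1 (log2 fold change 3.08 ± 0.16, adjusted p = 7.8e-14, edgeR) and in M2 (2.13 ± 0.18, adjusted p = 4.7e-10, edgeR), and the second call was lost against the summed nuclei of the other types (log2 fold change 0.18).

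Cacna1g was at 28.9, 45.9 and 38.8 CPM in ET2 and 29.7, 32.0 and 26.0 CPM in T1, and these neighbours overlapped. ET1 followed at 12.1, 9.87 and 12.6 CPM and overlapped M3, at 7.26, 14.1 and 4.83 CPM. M1, M2 and ET4 lay at 0 to 5.39 CPM and overlapped one another, and M1 overlapped M3. It was called higher in ET2 (log2 fold change 2.65 ± 0.25, adjusted p = 2.8e-09, edgeR) and in T1 (2.35 ± 0.21, adjusted p = 1.5e-09, edgeR). Cacna1g is on the marker list of T1 that the study drew from these nuclei and was kept out of the naming of types here, so that its level in T1 is not independent evidence. Within the summed T-type UMIs, the share of Cacna1i was 98.9 ± 1.1% in ET4 and 5.92 ± 2.2% in T1, and that of Cacna1h 86.0 ± 5.3% in M2 and 0.503 ± 0.50% in ET4.

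**Figure D3:**
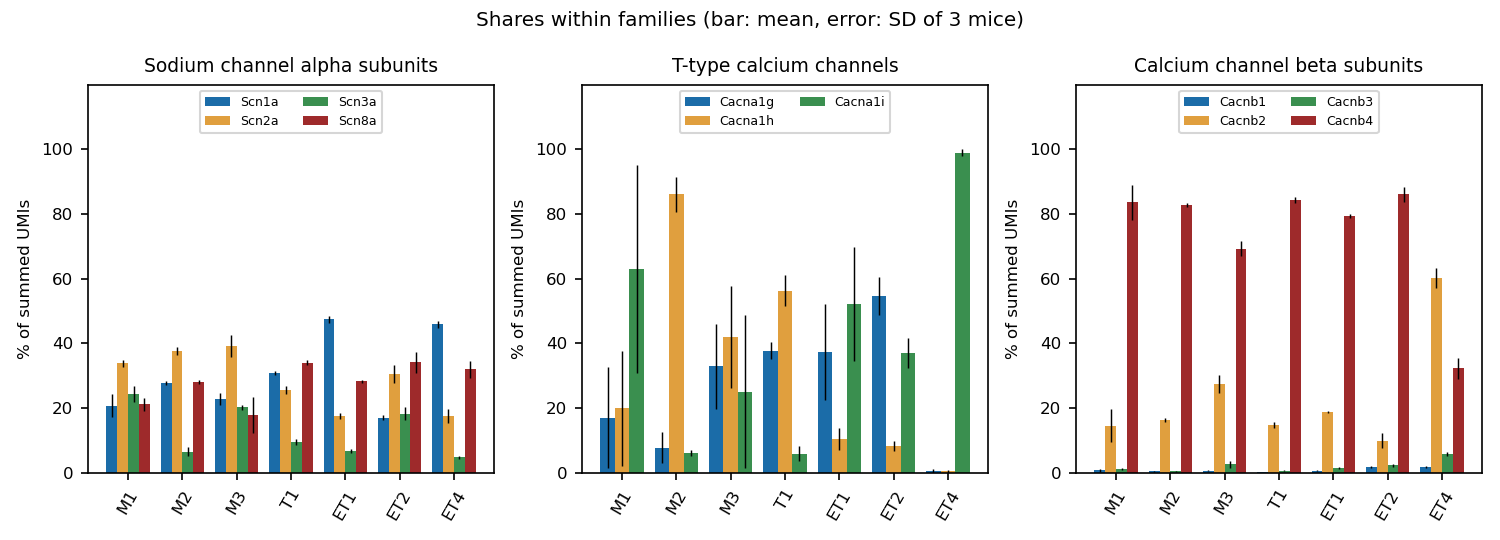
Shares of each gene in the summed UMIs of its family, by projection neuron type, as the mean of 3 mice with the SD as error bar. A colour is to be read across types and not against another colour, since genes differ in length. Scn1a takes its largest shares in ET1 and ET4, Cacna1i nearly all T-type UMIs in ET4, and Cacnb2 its largest share of the beta subunits in ET4.

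A pair of L-type genes was rarely counted. Cacna1s, the pore of skeletal muscle, had 157 UMIs in T1 (4.56, 3.89 and 5.00 CPM) and 0 in M3, so that it was at least 3.36-fold higher in T1 than the floor of 1.30 CPM that 3 counts give in M3. It passed the F test among types (adjusted p = 2.7e-05, edgeR), and it was called higher in T1 (log2 fold change 2.71 ± 0.39, adjusted p = 5.4e-06, edgeR), M2 and ET1 and lower in M3. The call in T1 held without each mouse, whereas those in M2 (adjusted p = 0.0974, edgeR) and ET1 (adjusted p = 0.108, edgeR) were lost without mouse 2 and that in M3 without any 1 of the 3 mice. Against the summed nuclei of the other types the value in M2 turned to -0.00469 (adjusted p = 0.993, edgeR) and that in ET1 was 0.31 (adjusted p = 0.665, edgeR). Cacna1f, the pore of photoreceptors, stayed at a mean of at most 2.78 CPM.

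Alpha2delta subunits carry the pore to the membrane. Cacna2d2 was at 137, 139 and 121 CPM in ET2, at 27.5, 42.1 and 41.2 CPM in ET4 and at 18.8, 29.3 and 12.6 CPM in ET1, and no library of M1, M2, M3 or T1 passed 12.4 CPM. The log2 fold change was 4.06 ± 0.20 in ET2 (adjusted p = 1.8e-14, edgeR) and 1.88 ± 0.24 in ET4 (adjusted p = 3.8e-07, edgeR). Cacna2d3 was highest in ET1, at 432 ± 36.0 CPM, and lowest in M1, at 130, 68.6 and 65.7 CPM, with a log2 fold change of -1.92 ± 0.15 in M1 (adjusted p = 1.4e-10, edgeR). Cacna2d1 went from 1142 ± 288 CPM in M1, where mouse 1 was at 811 CPM and the others at 1279 and 1336 CPM, to 397, 398 and 415 CPM in ET4, where it was called lower (log2 fold change -1.05 ± 0.14, adjusted p = 1.1e-06, edgeR).

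Beta subunits bind the pore inside the cell and raise its surface level. Cacnb4 was at 2332, 2136 and 2144 CPM in M2 and at 2359, 2130 and 2091 CPM in T1, and at 236, 255 and 282 CPM in ET4. M2 and T1 overlapped, and ET4 was below every other type, with a log2 fold change of -2.60 ± 0.15 (adjusted p = 1.2e-13, edgeR). Cacnb2 was highest in ET4, at 517, 469 and 459 CPM, and lowest in ET2, at 171, 106 and 98.8 CPM, and it made up 60.3 ± 3.0% of the beta subunit UMIs in ET4 but 9.90% to 27.4% in the other types. Cacnb3 was highest in ET4, at 45.5 ± 4.47 CPM, and lowest in M2, at 13.1 ± 3.09 CPM. Its call in ET4 (log2 fold change 1.02 ± 0.15) was lost without mouse 3, at 0.96. Cacnb1 stayed between 7.74 ± 2.15 CPM in M3 and 22.3 ± 2.88 CPM in ET2.

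Set together as classes, the 3 mitral types were higher than the 4 tufted types in Cacna1e and Scn3b (2 of 32 tested, against 5.53% of all genes) and lower in Cacna1g, Cacna1i, Cacna2d2 and Scn4b (4 of 32, against 3.81%). The median log2 fold change of the 32 members was 0.04, beside -0.03 over all genes tested. The log2 fold changes were 1.81 ± 0.16 for Scn3b (adjusted p = 1.3e-09, edgeR), -2.58 ± 0.23 for Cacna1i (adjusted p = 1.9e-09, edgeR), -2.45 ± 0.24 for Cacna2d2 (adjusted p = 5.7e-09, edgeR) and -1.51 ± 0.26 for Cacna1g (adjusted p = 6.5e-05, edgeR). None of these 4 changes was shared by all types of a class. Scn3b was low in M2, Cacna1i in T1 and Cacna1g in ET4 and ET1 overlapped mitral libraries, as did 1 library of ET1 for Cacna1i, and Cacna2d2 was at 1.44 to 4.19 CPM in T1. The call of Scn4b (adjusted p = 0.04, edgeR) was lost without any 1 of the 3 mice (adjusted p = 0.146, 0.116 and 0.206 without mouse 1, 2 and 3, edgeR) and with DESeq2 (adjusted p = 0.134).

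Of the 6 members called between mitral and tufted types, 4 have an entry in the RefSeq promoter table (GRCm38.p6), which held 30 of the 38 members. In 3 of these entries (Cacna1e, Cacna2d2 and Scn4b) the bases upstream of the RefSeq start lay wholly or mostly in an exon of the GENCODE annotation, and that of Cacna1e lay inside the gene, far from its outermost start, so they are not shown. For Cacna1i the RefSeq and the GENCODE start coincide, at position 80287238 of chromosome 15. The 250 bases before it are given 5′ to 3′ on the strand of the gene, with CG dinucleotides in capitals:
Cacna1i (chr15:80286988-80287237, plus strand): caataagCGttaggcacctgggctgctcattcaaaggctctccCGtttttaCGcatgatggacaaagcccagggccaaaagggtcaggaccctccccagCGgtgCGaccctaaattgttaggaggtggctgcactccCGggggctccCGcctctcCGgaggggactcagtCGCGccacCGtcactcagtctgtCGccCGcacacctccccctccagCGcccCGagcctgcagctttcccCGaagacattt

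This window of Cacna1i held 16 CG dinucleotides at 62.4% G or C. Over all 32851 promoter windows of this length the median was 6 at 52.4%, with 10th and 90th percentiles of 1 and 25 CG dinucleotides. Projection neurons of the OB are known for T-box factors (Tbx21, Tbr1, Eomes), and several of their types carry Ebf factors. In all, 3 motifs were searched on both strands, AGGTGTGA (T-box), the Ebf palindrome (TCCC, any 2 bases, then GGGA) and TGACGTCA (the cAMP response element). They were found in 1.12%, 0.779% and 1.55% of all windows and had 0 matches in that of Cacna1i, which says only that these letters are not in it.

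Known partners of the channels also differed among types. Of 22 partner genes in the files, which include calcium channel gamma subunits, STAC and RGK proteins, ankyrins and active zone scaffolds, 18 were tested and 17 passed the F test at an adjusted p under 0.05, as did 64.8% of all genes. Of these 17, the 6 with the largest ratio of the highest to the lowest type mean are named. Stac, which regulates L-type channels, was at 212, 227 and 244 CPM in T1 and at most 74.5 CPM in any other library. Nedd4l, a ubiquitin ligase that removes sodium channels from the membrane, was at 246, 242 and 246 CPM in ET4 and 9.81, 9.91 and 6.06 CPM in T1. Stac2 was at 26.6, 43.9 and 68.4 CPM in ET2 and at most 13.3 CPM elsewhere. The other 3 were low, with highest means of 12.1 CPM for Cacng6 in M3, 8.63 CPM for Fgf11 in ET4 and 6.68 CPM for Gem in M1.

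To ask how output neurons and interneurons differ, UMIs were summed over the 7 projection types and over the 10 inhibitory clusters in each mouse. Of 36 members tested, 10 were higher in projection neurons (15.4% of all 18088 genes were) and 9 were lower (13.9%). The median log2 fold change of the members was -0.19, beside 0.01 over all genes. Higher were the release channel pores Cacna1a and Cacna1b, the auxiliary genes Cacnb4 and Cacna2d3, the sodium channel genes Scn8a, Scn9a and Scn2b, Unc80, and the rare Cacna1s and Cacna1f. Lower were the T-type genes Cacna1g and Cacna1i, Cacna1c, Cacna2d2, Cacnb3, Scn3a, Scn3b and Scn7a, among others. Single types departed from these sums. Cacna1i in ET4 was at 322% of the inhibitory level, and in ET2 Cacna2d2 was at 295% and Cacna1g at 101%. Scn3a was at 109% in M1, and Scn3b at 127% in M1 and 118% in M3. In every other type these genes were below the inhibitory level. Of the genes called higher, Cacna1a and Cacna1b in ET4 were at 63.3% and 82.8% of the inhibitory level, and Cacna2d3 in M1 at 80.4%. The rare Cacna1s had 0 UMIs in M3, and Cacna1f was at 84.3% in M2.

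The largest of these differences at a high level was in Cacna1c, at 138, 221 and 175 CPM in projection neurons and 1534, 1745 and 1669 CPM in inhibitory neurons, a log2 fold change of -3.13 ± 0.19 (adjusted p = 6.3e-06, edgeR). Scn9a was at 74.8, 76.0 and 81.1 CPM in projection neurons and 13.3, 11.2 and 16 CPM in inhibitory neurons (log2 fold change 2.60 ± 0.13, adjusted p = 4e-06, edgeR). Cacnb4 was at 1954, 1565 and 1841 CPM against 596, 567 and 576 CPM (1.70 ± 0.10, adjusted p = 7.2e-06, edgeR), and Unc80 at 895, 792 and 869 CPM against 289, 294 and 307 CPM (1.60 ± 0.09, adjusted p = 5.1e-06, edgeR). The summed classes did not overlap for any of these 4 genes, but single types departed from the sums. Scn9a in ET2 was at 25.8% of the inhibitory level, and Unc80 and Cacnb4 in ET4 were at 57.2% and 44.5%. All other types were above the inhibitory level for these genes, and Cacna1c was below it in every type. The inhibitory sum is weighted to cluster 0, with 7681 nuclei. Against cluster 0 alone Cacna2d2 turned from lower (-1.51 ± 0.25) to higher in projection neurons (log2 fold change 1.04, adjusted p = 0.015, edgeR). Scn3a at -1.02 ± 0.15, Scn8a at 1.04 ± 0.10 and Cacna1f at 1.06 ± 0.32 were close to the 2-fold limit and lost their call without mouse 1 (-0.81 and 0.92) or, for Cacna1f, without mouse 2 or 3 (adjusted p = 0.102 and 0.131, edgeR).

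**Figure D4:**
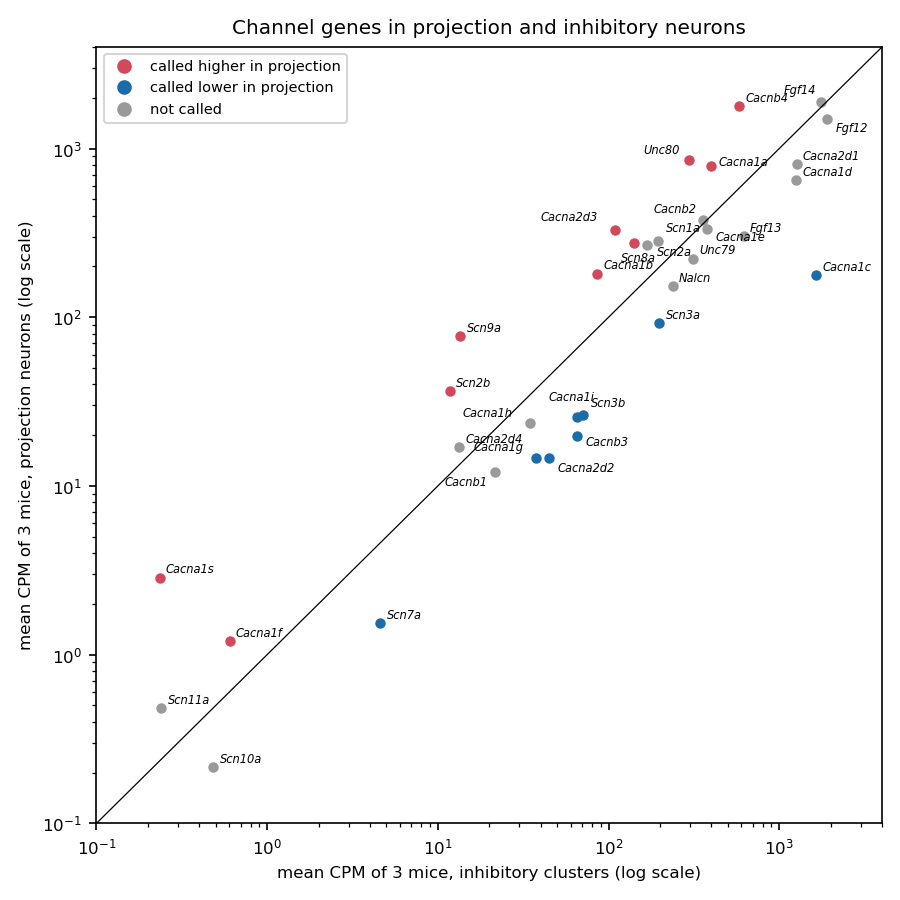
Mean CPM of 3 mice in projection neurons (vertical, log scale) against inhibitory clusters (horizontal, log scale) for 34 of the members tested, with the line of equal level. Red points were called higher in projection neurons, blue points lower, grey points neither; Cacna1c lies farthest below the line at a high level.

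The members were then followed across the inhibitory neurons. Among the 10 clusters, 33 of 34 members tested passed the F test, where 59.2% of 14722 genes did, and again Cacna2d4 was the exception (adjusted p = 0.33, edgeR). Cluster 17, of 190 nuclei, had 13 members higher than the mean of the other clusters and 4 lower (8.76% and 6.91% of all genes). It carried 3 of the 8 inhibitory markers and its nuclei had a median of 16912.5 UMIs, where the other inhibitory clusters had 4498 to 9736.5. Cluster 15, of 301 nuclei, had 8 higher and 11 lower (6.34% and 6.97%). The numbers higher and lower were 4 and 6 in cluster 0 (3.64% and 5.9%), 7 and 6 in cluster 1 (5.6% and 3.85%), 5 and 5 in cluster 3 (4.28% and 7.7%), 5 and 5 in cluster 6 (6.6% and 3.84%) and 4 and 7 in cluster 7 (5.9% and 4.12%). They were 4 and 1 in cluster 8 (7.65% and 1.51%), 6 and 6 in cluster 10 (4.97% and 2.78%) and 3 and 4 in cluster 12 (3.89% and 2.26%).

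Some sodium channel genes of low level were highest in 1 inhibitory cluster each, in all mice. Scn10a, known from pain-sensing neurons, was at 17.5, 10.8 and 12 CPM in cluster 17, on 42 UMIs, and at a mean of at most 0.834 CPM in the other inhibitory clusters. Scn4b was at 6.35, 3.75 and 9.63 CPM in the same cluster, on 17 UMIs. Scn7a, a sodium-sensing relative of the family, was at 33.6, 16.3 and 22.9 CPM in cluster 6, and cluster 7 followed at 6.28 to 8.59 CPM.

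The sodium channels common in the brain differed among these clusters too. Scn3a was highest in clusters 12 and 10, at means of 400 ± 70.6 and 392 ± 31.0 CPM, and lowest in cluster 15, at 43.8 ± 14.9 CPM. Scn1a was highest in clusters 17 and 15, at 432 ± 38.9 and 422 ± 22.9 CPM, and lowest in cluster 10, at 67.4 ± 17.0 CPM. Clusters 10 and 12 were thus at the high end for Scn3a, with 61.4 ± 4.7% and 47.2 ± 5.3% of the alpha subunit UMIs, and cluster 15 at the low end, with 5.18 ± 2.0%. Scn2a was highest in cluster 8, at 265 ± 48.4 CPM, and Scn8a in cluster 17, at 314 ± 39.7 CPM, with both lowest in cluster 10, at 88.4 ± 10.1 and 90.7 ± 5.25 CPM. Scn9a ranged from 127 ± 33.7 CPM in cluster 15 to 1.79 ± 0.738 CPM in cluster 0.

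Of the partners of sodium channels, Scn2b was highest in cluster 15, at 52.4 ± 15.8 CPM, and lowest in cluster 3, at 4.65 ± 2.14 CPM. Scn3b went from 106 ± 4.68 CPM in cluster 1 to 13.3 ± 3.57 CPM in cluster 15. Fgf13 was at 1435, 1227 and 1259 CPM in cluster 10, above the other clusters, and lowest in cluster 15, at a mean of 101 ± 56.8 CPM. Fgf12 was highest in cluster 6 (2767 ± 129 CPM) and lowest in cluster 10 (636 ± 178 CPM), and Fgf14 highest in cluster 17 (2581 ± 437 CPM) and lowest in cluster 12 (722 ± 56.1 CPM). Nalcn was at 646, 539 and 700 CPM in cluster 7, where no other cluster's mean passed 317 CPM, and lowest in cluster 15, at 67.6 ± 14.3 CPM (log2 fold change in cluster 7 of 1.52 ± 0.11, adjusted p = 1.1e-12, edgeR). Unc79 went from a mean of 373 ± 5.14 CPM in cluster 1 to 251 ± 35.2 CPM in cluster 15. Unc80 went from 430 ± 10.0 CPM in cluster 6 to 210 ± 14 CPM in cluster 7.

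Several calcium channel pores were lowest in cluster 15. Cacna1e was at 958, 709 and 987 CPM in cluster 10 and 29.9, 61.5 and 6.48 CPM in cluster 15. Cacna1c was at 2119, 2181 and 2442 CPM in cluster 0 and 73.0, 312 and 9.72 CPM in cluster 15, where the mice differed widely. Cacna1d was highest in cluster 3, at 1747 ± 87.3 CPM, and lowest in cluster 8, at 582 ± 36.4 CPM. Of the T-type genes, Cacna1g was highest in cluster 10 (60.4, 66.2 and 107 CPM), which overlapped cluster 1, and lowest in cluster 15 (11.4 ± 2.68 CPM). Cacna1h was highest in cluster 1 (54.5 ± 6.17 CPM) and lowest in cluster 17 (6.91 ± 3.34 CPM), and Cacna1i was highest in cluster 3 (109 ± 4.69 CPM) and lowest in cluster 15 (30.3 ± 9.74 CPM). Cacna1a and Cacna1b were highest in cluster 17, at 810 ± 24.2 and 186 ± 3.85 CPM, and lowest in clusters 1 (286 ± 3.44 CPM) and 15 (48.0 ± 19.3 CPM).

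**Figure D5:**
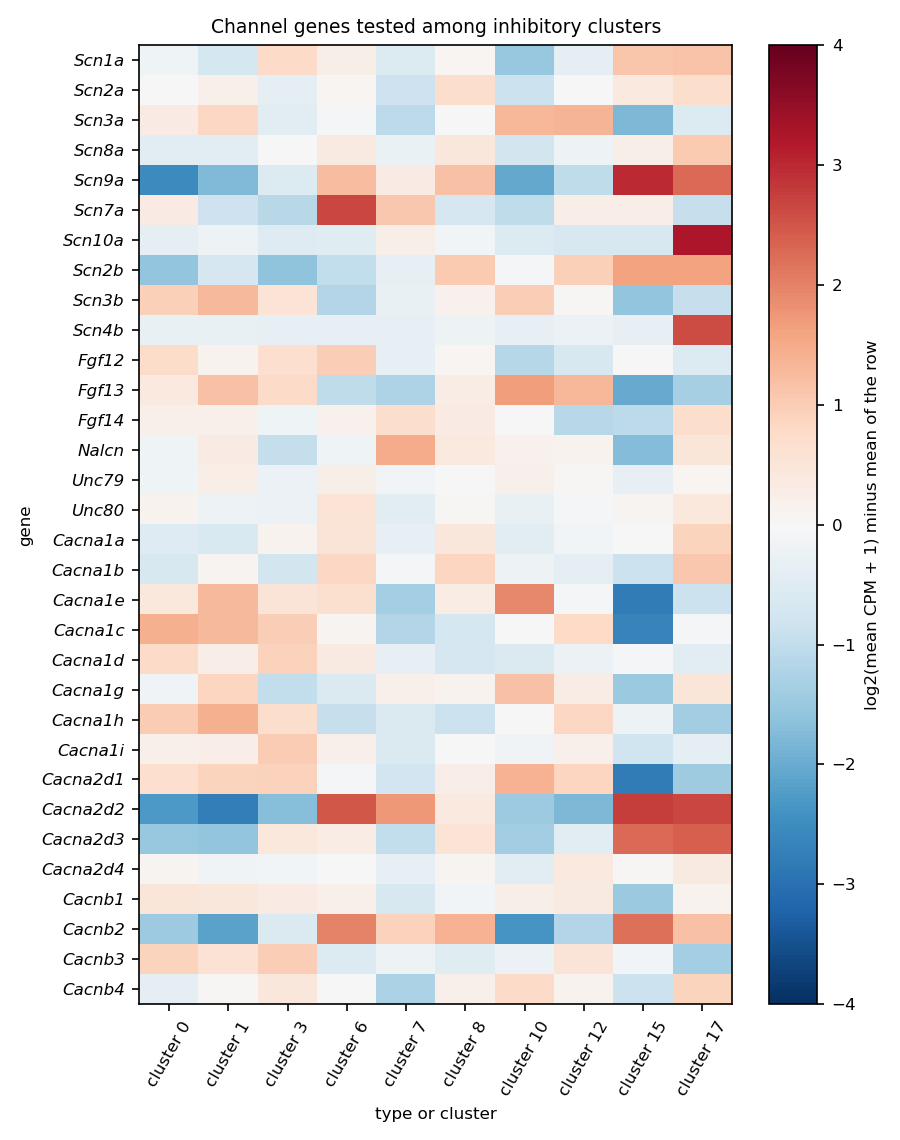
Each row is 1 of 32 members tested among inhibitory clusters and each column 1 cluster. Colour gives log2(mean CPM of 3 mice + 1) minus the mean of the row. Scn10a and Scn4b are high in cluster 17, Scn7a in cluster 6, and Cacna2d2 in clusters 6, 7, 15 and 17.

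Auxiliary calcium channel genes showed wide ranges. Cacna2d2 was at a mean of 271 ± 48.5 CPM in cluster 15, 255 ± 33.6 CPM in cluster 17 and 226 ± 10.3 CPM in cluster 6, and at 4.91 ± 0.702 CPM in cluster 1 and 7.13 ± 1.71 CPM in cluster 0. Cacna2d1 was highest in cluster 10 (2138 ± 207 CPM) and lowest in cluster 15 (116 ± 127 CPM), and Cacna2d3 was highest in cluster 17 (701 ± 107 CPM) and lowest in cluster 1 (44.0 ± 8.42 CPM). Cacnb2 was at 1595, 1354 and 1639 CPM in cluster 15 and 63.5, 99.6 and 29.8 CPM in cluster 10. Cacnb4 was highest in cluster 17 (1085 ± 163 CPM) and lowest in cluster 7 (241 ± 34.2 CPM). Cacnb3 was highest in cluster 3 (89.2 ± 29.2 CPM) and lowest in cluster 17 (17.0 ± 2.34 CPM), and Cacnb1 ranged from 24.5 ± 3.29 CPM in cluster 0 to 5.45 ± 5.70 CPM in cluster 15. Cacna2d4 stayed between 17.8 ± 4.08 CPM in cluster 12 and 9.78 ± 3.19 CPM in cluster 10.

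Neurons were also compared with glia, as a measure of how far these genes mark neurons. Against the mean of the astrocyte-like, oligodendrocyte-like, OPC-like (oligodendrocyte precursor) and microglia-like clusters, 19 of 30 members tested were higher in neurons (9.42% of 12904 genes were) and 0 were lower (9.49%), with a median log2 fold change of 1.26 for the members and 0.01 for all genes. Scn9a gave the largest value, at 2.59 ± 0.28 (adjusted p = 1.8e-07, edgeR). The count of 0 lower was also 0 at an unadjusted p under 0.05 and with DESeq2. The inhibitory markers themselves were still at 9.30% to 80.3% of their inhibitory level in these glia, and the summed markers were highest in mouse 2 in each of these clusters. Without mouse 2, 28 members were called, and 27 without the microglia and OPC clusters, whose smallest library held 10 nuclei. The part of background RNA in these values was not tested.

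In glia, some members were near their mean over a neuron class. Each member's mean in a glial cluster was set against its mean in the higher of the neuron classes, and each of 8 inhibitory and 7 projection neuron markers against its mean in its own class. Of 30 members at 10 CPM or more in a neuron class, 12 were above all markers in microglia, 6 in ensheathing glia, 4 in OPC, 3 in oligodendrocytes and 1 in astrocytes. The share of all genes above the markers is not given here, so these counts show nothing particular to channels. The count in OPC rested on 1 marker, Thy1, at 57.8% of its projection level there, since without it the counts were 12, 7, 23, 4 and 1 in the same order. Cacna2d4 was above the markers in all 5 clusters, at 14.7, 13.4 and 17.4 CPM in astrocytes, though with 8 UMIs in microglia.

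Nalcn was at 237, 312 and 318 CPM in OPC and 232, 239 and 284 CPM in the cluster like ensheathing glia, 122% and 106% of its mean in the higher of the neuron classes. The 8 inhibitory markers reached 9.30% to 21.7% of their inhibitory level in OPC and 20.7% to 37.2% in ensheathing glia, and the 7 projection neuron markers at most 57.8% and 47.0% of their projection level. The highest projection marker in each was Thy1, which separated the neuron classes little, at 64.3 CPM in projection and 50.4 CPM in inhibitory neurons. The medians of the 7 were 10.2% and 16.8%. Cacna2d3 was at 209, 223 and 294 CPM in OPC, 73.2% of the higher neuron class, and Scn3b at 44.9, 72.8 and 73.1 CPM in ensheathing glia, 90.1% of it. In microglia Cacnb2 was at 179, 469 and 693 CPM, 118% of the higher neuron class, and Fgf13 at 747, 521 and 414 CPM, 90.6% of it, in libraries of 19, 103 and 24 nuclei. The inhibitory markers were at 19.1% to 45.5% and the projection markers at up to 39.4%, again for Thy1, in these. A class mean hides single clusters, and for each of these genes an inhibitory cluster had a mean above that of the glia named. These means were 628 CPM for Nalcn in cluster 7, 701 CPM for Cacna2d3 in cluster 17 and 106 CPM for Scn3b in cluster 1. Cacnb2 was at 1529 CPM in cluster 15 and Fgf13 at 1307 CPM in cluster 10. This comparison with the markers was chosen after the values were seen, and no test of the percentages was run.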

How the data were processed

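Single-nucleus RNA-seq of the olfactory bulb was analysed in 3 mice, 1 library each. The authors aligned and counted reads with Cell Ranger (GRCm38, per the submitters' processing notes; whether strand or introns were used is not given in the sources used here) and deposited filtered UMI counts per gene and nucleus, with a table of retained nuclei, their clusters and a percent of mitochondrial UMIs. The mice gave 5845, 21105 and 4753 retained nuclei with 58526996, 213891496 and 62929479 UMIs. No doublet caller was run here; the sort gate excluded doublets by scatter.

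UMIs were summed per mouse and cluster or subcluster. Clusters were named where at least 3 markers of a list reached 40% (subclusters 50%) of the highest level. This was set after the levels were seen: 25% and 50% were tried for clusters, 25% gave 12 inhibitory clusters by their markers and the others 11, of which 1 with few UMIs stayed unnamed. Libraries with under 10 nuclei were not used. edgeR 4.0.16 (R 4.3.3; TMM, filterByExpr, quasi-likelihood F test) was fitted to all genes with mice as replicates, and p-values were adjusted over all genes by Benjamini-Hochberg. Calls between groups also needed a log2 fold change over 1. Every member at 10 CPM or more in some type or inhibitory cluster was named with its highest and lowest type, save for members not reported here. The members and lists were chosen with earlier results of these data known. Types of 1 mouse come from the same animal, and same-mouse libraries deviated together only weakly (mean r 0.108 over 63 pairs of types, 0.275 between projection and inhibitory neurons), so the replicate block was an alternative. Others were no TMM, DESeq2 1.42.0 and its size factors, no filter, nuclei with at least 1500 genes, leaving out each mouse or the M1 library of mouse 1, summing the other types, and cluster 0 alone. The tests were tested on simulated data, of which no result is given or used here. The glial comparison with markers, its alternative without Thy1 and the promoters considered were chosen after values were seen; only windows outside annotated exons (GENCODE vM21) are shown. Floors cover counting error only.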

Additional observations from a re-analysis of the deposited data

How the results depend on the processing

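The number of members that passed each test kept within 1.5 times its value under all alternatives run. It was 30 to 32 among projection neuron types, 61 to 71 for a type against the others, 5 to 7 between mitral and tufted types, 18 to 20 between projection and inhibitory neurons, 31 to 33 among inhibitory clusters, 17 to 28 between neurons and glia, and 17 to 19 for the partner genes. The span of the Scn1a share was 29.9 to 30.6 percentage points. Leaving out each mouse in turn gave 61 to 67 calls of a type against the others and 19 to 28 between neurons and glia. With mouse as a replicate block the counts were 31, 66, 6, 19, 33, 20 and 18 in the same order, so that the pairing moved no count by over 1.5 times.

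Among single genes, 3 results turned direction. Cacna2d2 was at 1.04 in projection neurons against cluster 0 alone. Against the summed nuclei of the other types, Cacna1s in M2 was at -0.00469 and Cacna1i in ET2 at -0.0821 (log2 fold changes). A further 56 single-gene values lost their call, counted per result and alternative, so that 1 result can count more than once. The share of Scn3a in M3 was 22.3% in nuclei with at least 1500 genes. The cause was not tested. Calls lost without 1 mouse and not named above were those of Cacna1g, Cacna1i, Cacna1h and Cacna2d2 as lower in M1, Scn9a in M3, Cacna1h in ET1, Scn2a in ET4 and Cacna2d3 against glia. Without TMM the median of all genes moved to -0.12 in M2, 0.156 in M3, -0.117 in T1, 0.131 in ET4 and -0.181 for neurons against glia. Depth limits the rare members, M1 of mouse 1 and the glia. The clusters 10 and 12 and the microglia and OPC were left out as alternatives chosen after seeing the data.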
